A study of Rattus norvegicus with 12 samples.

Results

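The 3-beta-hydroxysteroid dehydrogenases were followed in liver RNA as 4 genes, chosen by their symbols in the count files: Hsd3b, Hsd3b1, Hsd3b5 and Hsd3b6. They are 4 of the 16478 gene rows, and each row was found in all 12 libraries. In male livers Hsd3b5 was an abundant transcript and the other 3 were present at a few per cent of its counts, while in female livers Hsd3b5 was low but counted in every animal and the other 3 were near the limit of detection. The shares of the 4 genes in their summed counts did not pass a test between the sexes, and the few female counts leave wide limits on them.

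Enzymes of this family oxidise the 3-beta-hydroxyl group of steroids such as pregnenolone and dehydroepiandrosterone and move a ring double bond, a step needed to make progesterone, androgens and corticoids in adrenal gland and gonads. Rodents carry several tandem copies of the gene. Some rodent copies work mainly in the other direction, as reductases of 3-ketosteroids such as dihydrotestosterone, and a form of that kind is known from male liver.

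Symbols of this family have changed between annotations. In the RefSeq gene table of assembly GRCr8, Hsd3b5 and Hsd3b1 are current symbols, but Hsd3b1 is also listed as an older name of Hsd3b2. Hsd3b6 is listed there only as an older name of Hsd3b2, and Hsd3b as an older name of both Hsd3b5 and Hsd3b3. The rows are therefore called by the symbols in the count files, and Hsd3b and Hsd3b6 are not equated with a current gene. The table places Hsd3b5, a pseudogene Hsd3b5-ps1, Hsd3b2, Hsd3b3 and Hsd3b1 next to each other on chromosome 2, with 1 other gene between them.

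The upstream sequences of Hsd3b1, Hsd3b3 and Hsd3b2 are shown because they give a measure of how alike neighbouring copies can be. That of Hsd3b5, the member with most counts, is not analysed here, so the comparison and the motif search below do not cover it. These are the 250 bases before the annotated start in RefSeq (GRCr8), 5′ to 3′, with the base that differs between Hsd3b1 and Hsd3b3 in capitals. The counts were made on build rn4, so these positions were not used for counting.
Hsd3b1, chr2:188864695-188864944, minus strand: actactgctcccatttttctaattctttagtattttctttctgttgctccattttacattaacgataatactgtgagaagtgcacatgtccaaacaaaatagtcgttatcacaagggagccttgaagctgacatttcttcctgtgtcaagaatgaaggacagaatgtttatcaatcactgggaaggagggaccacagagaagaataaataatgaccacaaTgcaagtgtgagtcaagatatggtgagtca
Hsd3b3, chr2:188832735-188832984, minus strand: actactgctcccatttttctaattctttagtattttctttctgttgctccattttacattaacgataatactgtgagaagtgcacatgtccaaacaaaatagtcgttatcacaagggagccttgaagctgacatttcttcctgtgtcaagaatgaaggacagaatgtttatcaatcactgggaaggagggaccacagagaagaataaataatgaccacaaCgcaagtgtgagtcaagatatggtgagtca
Hsd3b2, chr2:188794070-188794319, minus strand: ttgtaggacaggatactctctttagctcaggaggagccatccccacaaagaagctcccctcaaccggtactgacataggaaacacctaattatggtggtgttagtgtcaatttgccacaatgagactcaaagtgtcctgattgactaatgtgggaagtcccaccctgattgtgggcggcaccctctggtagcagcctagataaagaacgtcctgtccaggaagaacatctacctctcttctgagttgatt
The Hsd3b1 and Hsd3b3 windows matched at 249 of 250 bases (99.6%), and the base that differs lies 30 bases before the start. Hsd3b2 shared 139 bases with either in a gapped alignment of 297 columns (46.8%), and without gaps 190 of 250 positions differed. No unrelated windows were aligned, so the 46.8% cannot be read as likeness beyond chance. None of the 3 windows held the letters of the STAT5 motif (TTCNNNGAA), the HNF4 motif (CAAAGTCC) or the HNF1 motif on either strand. Over all 33469 windows of that length, 7.67% held the STAT5 letters, 1.14% the HNF4 letters and 0.0896% the HNF1 letters.

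The animals were 6 male and 6 female obese ZSF1 rats, adults aged 16 weeks, untreated and fed chow freely. ZSF1 rats descend from a cross of strains that carry leptin receptor mutations, and the obese animals lack a working receptor gene from either parent, a defect that both sexes share. Lean or wild-type animals are not analysed here, so the comparison asks how male and female livers differ within this obese strain. Each library came from the liver of 1 animal. Library totals over genes ran from 11381428 to 29232871 counts in males and from 6763879 to 24837602 in females. At these depths 3 counts are worth 0.105 to 0.262 CPM (counts per 1000000 library counts) in males and 0.125 to 0.415 CPM in females. Male 4 stood apart on the second principal component (11.4% of the variance) and female 12 on the third (5.59%), so results were also computed without them.

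Hsd3b5 was far higher in male than in female livers. Its CPM, scaled by the trimmed mean of M-values (TMM), was 621.7 at the lowest, 729.7 at the median and 799 at the highest among males, and 1.29, 2.15 and 4.57 among females. The lowest male therefore lay far above the highest female. The means were 716 ± 64.0 CPM in males and 2.38 ± 1.23 CPM in females (SD, n = 6 each). edgeR's quasi-likelihood test gave a log2 fold change, males over females, of 8.39 (SE 0.238), or 336-fold, with a Benjamini-Hochberg adjusted p of 5.66e-12 over 9943 tested genes. Hsd3b5 ranked 160th of these in mean CPM among males, and its log2 fold change ranked 6th toward males.

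The other 3 genes were moderately low in males and almost absent in females. Hsd3b1, known in rodents from adrenal gland and gonads, had 11.5, 14.8 and 16.8 CPM at the lowest, median and highest male, and 0, 0.0679 and 0.138 CPM among females. Over all animals it had 1508 counts in males and 7 in females, and 1 female library was at 0. Hsd3b had 13.8, 14.8 and 18.1 CPM among males and at most 0.277 CPM among females, where 4 of 6 libraries were at 0. It had 1619 counts in males and 3 in females. Hsd3b6, whose mouse namesake is known from the aldosterone-making zone of the adrenal, had 6.64, 8.15 and 8.67 CPM among males. Its only female count, of 849 in males and 1 in females, was in female 12. In each of the 3 genes the males lay above all females.

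**Figure D1:**
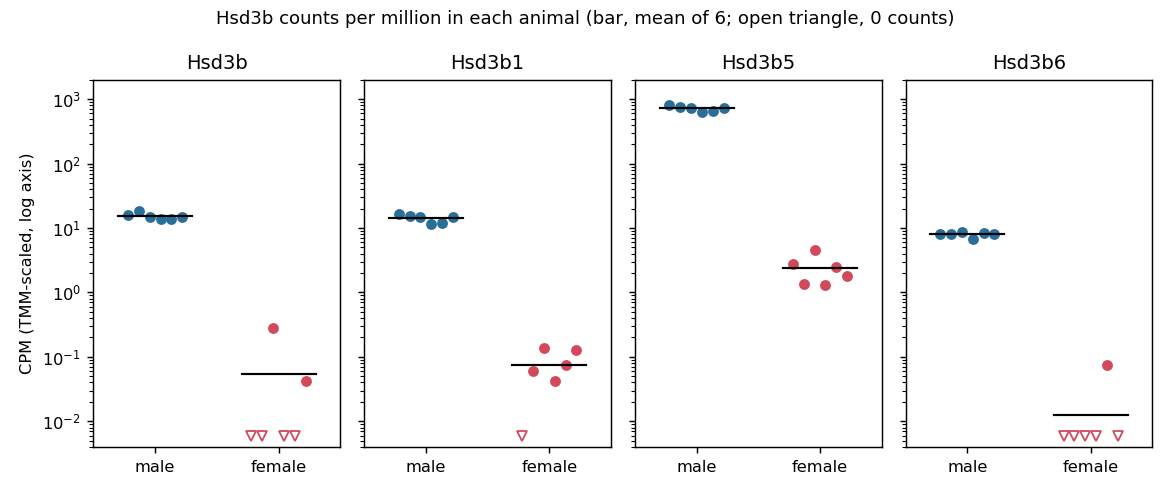
TMM-scaled CPM of each gene in each animal, on a log axis, with males left of females in each panel; bars are means of 6 animals and open triangles mark libraries with 0 counts, drawn at an arbitrary height. Hsd3b5 lies between 621.7 and 799 CPM in males and between 1.29 and 4.57 CPM in females, and in the other 3 genes all males also lie above all females.

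All 4 genes passed the edgeR test at adjusted p under 0.05, higher in males, where 22.7% of all tested genes were called in that direction. In all 4 every male lay above every female, as in 12.8% of all tested genes. All 4 were at least 8-fold higher in males, as were 0.493% of all tested genes. Hsd3b, Hsd3b1 and Hsd3b6 entered the test only through their male counts, so that they differ was fixed by the filter, and their calls add little. The fitted log2 fold changes, males over females, were 7.45 (SE 0.227, adjusted p = 3.77e-12) for Hsd3b1, 8.59 (SE 0.308, adjusted p = 2.31e-11) for Hsd3b and 8.79 (SE 0.308, adjusted p = 1.77e-11) for Hsd3b6. With so few female counts these values lean on single reads. Without female 9 that of Hsd3b was 9.68, without female 12 that of Hsd3b6 was 10.1, and limma-voom gave 7.58 for Hsd3b6.

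Ratios of summed counts, scaled to library size, carry an interval for the counting error. Males over females, the ratio was 356 for Hsd3b5 (exact 95% interval 309 to 413). It was 191 for Hsd3b1 (92.7 to 477), 480 for Hsd3b (164 to 2328) and 754 for Hsd3b6 (135 to 29831). The interval of Hsd3b5 lay inside those of the other 3 genes. The fold differences of the 4 genes could thus not be told apart at this depth. Taken as 1 quantity, the summed members averaged 753 ± 67.4 CPM in males and 2.52 ± 1.35 CPM in females. Mean log2(CPM + 1) of the sum was 9.55 in males and 1.74 in females, a difference of 7.82 (exact 2-sided permutation p = 0.00216, the smallest this design allows). That sum does not depend on how reads of like copies were divided among the rows. The count files keep rows named ambiguous and alignment_not_unique apart from the genes, and reads counted there are missing from the members and from the sum. How many of those reads came from this family is not known, so the split between genes and the level of the sum are uncertain. In whole liver, fewer cells that express a gene and less RNA per cell cannot be told apart.

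The share of each gene in the summed counts of the 4 varied little among males. Shares count reads and are not corrected for transcript length, which was not used here. Hsd3b5 held 95.04% ± 0.130 of the summed counts in males and 94.99% ± 3.25 in females (SD, n = 6 each). Hsd3b held 2.02% ± 0.159 in males and 1.28% ± 2.26 in females, Hsd3b1 1.87% ± 0.108 in males and 3.25% ± 2.10 in females, and Hsd3b6 1.06% ± 0.0885 in males and 0.476% ± 1.17 in females. The wide female spread rests on 23 to 47 summed counts a library, against 9618 to 22099 in males. No share passed the exact 2-sided permutation test between males and females. The p-values were 0.130 for Hsd3b1, 0.177 for Hsd3b6, 0.361 for Hsd3b and 0.983 for Hsd3b5, and the adjusted p over these 4 tests was at least 0.355. Single females decide these values. Without female 7, which had no Hsd3b1 count among 28 summed counts, the Hsd3b1 share differed by -2.02 percentage points, males minus females (exact permutation, adjusted p = 0.00866). Every remaining female held an Hsd3b1 count, and any such count gives a share above that of every male. The outcome of that test was thus fixed by construction and shows no difference in share. Without female 12, which held the only female Hsd3b6 count, the Hsd3b6 share differed by 1.06 points. All remaining females are then at 0, which fixes the outcome of the permutation test, and 0 of 166 summed counts allows a share of up to 1.81%, above the male 1.06%. Without female 9 the Hsd3b difference was 1.59 points, against 0.736 with all animals (exact permutation, adjusted p = 0.0519 without female 9). The Hsd3b5 difference, 0.0498 points, was -0.616 without female 9 and -0.651 without female 13.

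**Figure D2:**
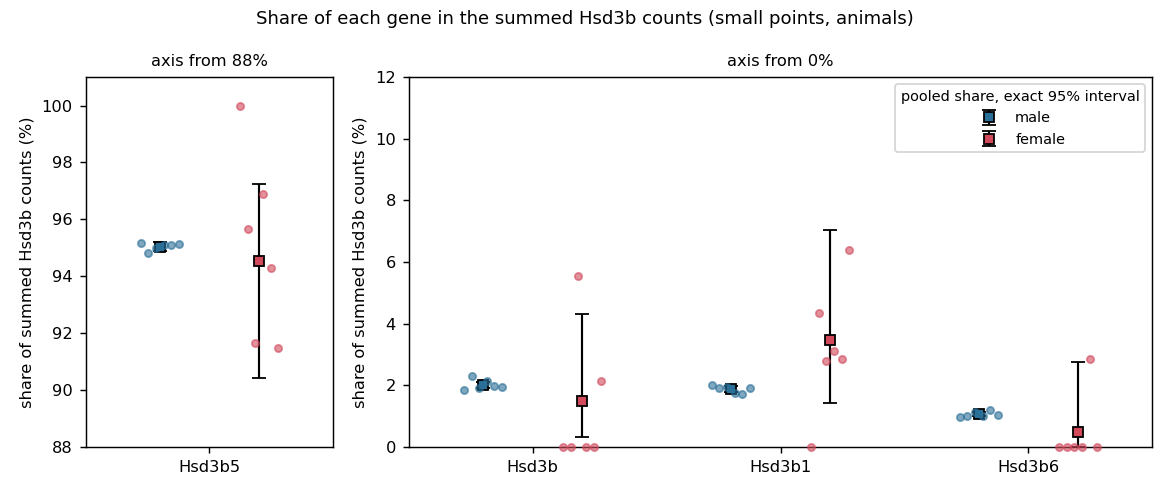
Share of each gene in the summed Hsd3b counts, in per cent, for Hsd3b5 (left, axis from 88%) and the other 3 genes (right), with males left of females; small points are animals and squares are pooled counts of 6 animals with exact 95% intervals. The pooled male share of each gene lies inside the female interval, which is wide because it rests on 201 counts.

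Pooling the animals of a sex gave the same picture with an interval. Of 80177 summed counts in males 95.04% were Hsd3b5, and of 201 in females 94.5% (exact 95% interval 90.4 to 97.2). The Hsd3b1 share was 1.88% in males and 3.48% in females (interval 1.41 to 7.04). For Hsd3b it was 2.02% in males and 1.49% in females (0.309 to 4.30), and for Hsd3b6 1.06% in males and 0.498% in females (0.0126 to 2.74). Per 100 counts of Hsd3b5, the other 3 genes together had 5.22 counts in males and 5.79 in females. The odds ratio of that proportion, males over females, was 0.901 (exact 95% interval 0.492 to 1.84). These counts therefore allow a proportion in males from 0.492 to 1.84 times that in females. These intervals cover counting error only.

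Among males the 3 minor genes kept a narrow range of proportions to Hsd3b5. Per 100 counts of Hsd3b5, Hsd3b had between 1.96 and 2.41 counts in the 6 males, Hsd3b1 between 1.81 and 2.10, and Hsd3b6 between 1.03 and 1.27. The coefficient of variation of these proportions was 8.0%, 5.79% and 8.31% in that order, where counting error alone would give 6.09%, 6.31% and 8.41%. Chi-square per degree of freedom over the 6 males was 1.71 for Hsd3b, 0.657 for Hsd3b1 and 0.775 for Hsd3b6, where 1 is the value for counting error alone. Hsd3b was highest relative to Hsd3b5 in male 2. These spreads were not tested. In CPM the coefficient of variation among males was 8.94% for Hsd3b5, 14.2% for Hsd3b1, 10.7% for Hsd3b and 8.86% for Hsd3b6. The median over all tested genes was 12.8%, and over the 1098 genes of at least 100 CPM it was 9.36%.

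Male 4, the animal that stood apart, had the lowest Hsd3b5 of the males at 621.7 CPM, and male 1 had the highest. Over the 6 males log2(CPM + 1) of Hsd3b1 and Hsd3b5 correlated at Pearson r = 0.983 (exact permutation p = 0.00417, adjusted over 6 pairs 0.025) and Spearman rho = 0.943 (exact permutation p = 0.0167, adjusted 0.10). Without the 2 animals farthest from the median of Hsd3b1, r was 0.948. Hsd3b and Hsd3b5 gave r = 0.678 and rho = 0.886 (exact permutation p = 0.132 and 0.0333, adjusted 0.294 and 0.10), and r = 0.983 without the 2 farthest animals. The other 4 pairs gave r between 0.183 and 0.645, and none of these passed the adjustment. Hsd3b6 has the fewest counts of the 4, at most 231 in a male.

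In females the counts of Hsd3b5 were not found to follow library size. They ran from 22 to 43, a 1.95-fold range, over library totals that ranged 3.67-fold. The shallowest library, female 9, held 33 counts and the deepest, female 13, held 43. Female 9 therefore had the highest Hsd3b5 level (4.57 CPM), and female 10, the second deepest, the lowest (1.29 CPM). Across the 6 females Hsd3b5 counts and library totals gave r = 0.390 and rho = 0.203 (exact permutation p = 0.467 and 0.711, also after adjustment), and r = -0.639 without the 2 totals farthest from the median. Hsd3b7, a relative with far more counts, gave r = 0.946 and rho = 0.943 in the same females (exact permutation p = 0.00278 and 0.0167, adjusted over 6 relations 0.00833 and 0.050), and r = 0.914 without the 2 farthest totals. Cyp2c11, a male-specific steroid hydroxylase gene, gave r = 0.713 and rho = 0.543 in females (exact permutation p = 0.122 and 0.297, adjusted 0.147 and 0.357), and r = 0.0788 without the 2 farthest totals. Among males Hsd3b5 counts and totals gave r = 0.968 and rho = 0.771 (exact permutation p = 0.0111 and 0.103, adjusted 0.0188 and 0.154). Without the 2 farthest totals the male r was 0.776. The part of sequencing depth in the female CPM of Hsd3b5 was not tested.

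**Figure D3:**
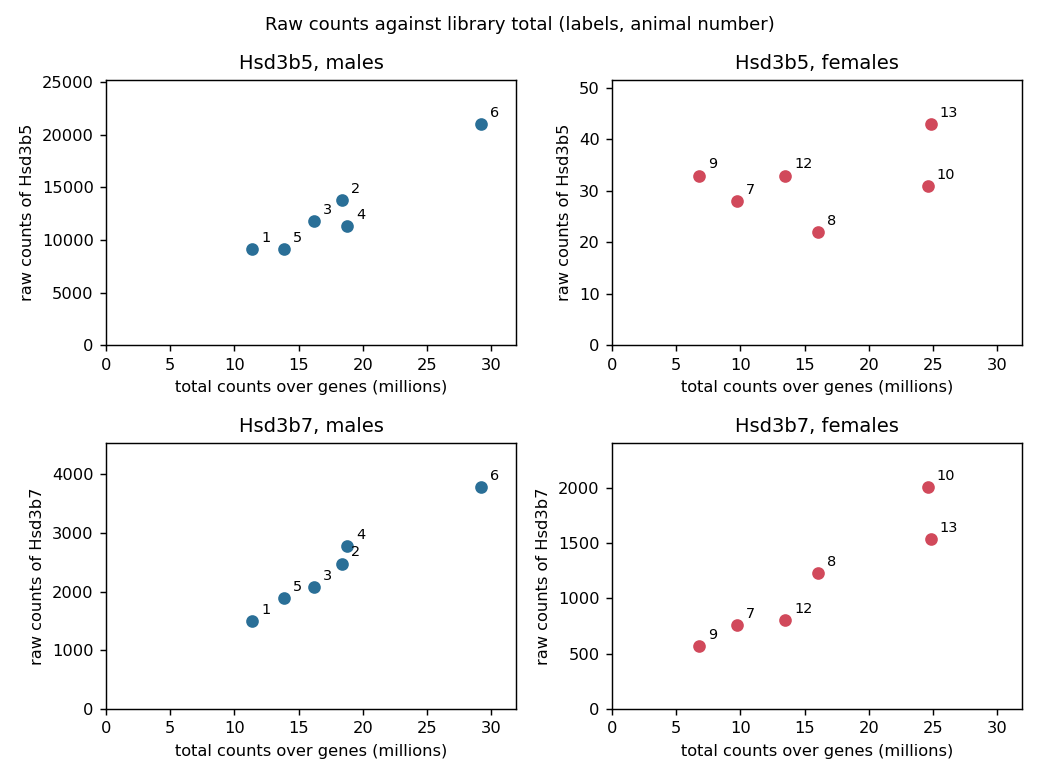
Raw counts of Hsd3b5 (top) and Hsd3b7 (bottom) against the library total, in counts divided by 1e+06, for males (left) and females (right); labels are animal numbers and the count axes differ between panels. In females Hsd3b5 stays between 22 and 43 counts over totals from 6763879 to 24837602, while the deeper libraries tend to hold more Hsd3b7 counts.

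The genes whose pattern over the 12 libraries was most like that of a member were found by the root mean square difference of centred log2 CPM, among 7747 genes with at least 5 CPM in the higher sex. For Hsd3b5 the nearest was Cyp2c11 with a difference of 0.23 log2 units. Cyp2c11 ran from 2023 to 3406 CPM in males and from 4.79 to 12.0 CPM in females. Its female counts ran from 79 to 152, and it too was highest in female 9. Mup4, a major urinary protein gene, followed at 0.36, with 255 to 775 CPM in males and 0.727 to 3.88 CPM in females. LOC259245 came next at 0.38. Both Mup4 (12 to 33 counts a female) and LOC259245 (2 to 6 counts) were likewise highest in female 9 in CPM. These genes were picked by likeness over all libraries, so that shared feature is partly a result of the choice. For Hsd3b1 the nearest were Hsd3b6 (0.37) and Hsd3b (0.38), then the organic anion transporter gene Slc22a8 (0.54). Hsd3b was followed by Hsd3b1 (0.38), Slc22a8 (0.46) and LOC259246 (0.52), and Hsd3b6 by Hsd3b1 (0.37), LOC685099 (0.42) and Hsd3b (0.53). The same genes came first with library totals in place of TMM. For Hsd3b, Hsd3b1 and Hsd3b6, which have 0 to 3 counts in each female and passed the 5 CPM minimum through the males, the female log2 values are set mainly by the prior count of 2, so their nearest genes describe little beyond the male level and near absence in females.

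Relatives of the family with other roles differed by smaller folds. Hsd3b7, which acts in bile acid synthesis from cholesterol, was higher in males, at 136 ± 8.52 CPM against 72.9 ± 8.63 CPM in females (1.86-fold, log2 0.90, SE 0.0773, edgeR adjusted p = 5.46e-07), with no overlap. Nsdhl, a sterol dehydrogenase of cholesterol synthesis, was lower in males, at 337 ± 53.4 CPM against 434 ± 28.6 CPM in females (log2 -0.37, SE 0.0964, adjusted p = 0.00686), and the sexes overlapped. The other 5 symbols listed as relatives matched no row.

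Genes that make steroid hormones upstream and downstream of these enzymes were mostly too low to test. Of 15 listed, 6 were tested, 1 was higher in males and 1 in females, where 22.7% and 20.5% of all tested genes were called in these directions. Por, which passes electrons to microsomal P450s, was higher in males (log2 0.58, adjusted p = 0.00462), and Fdx1, the ferredoxin that serves mitochondrial P450s, was lower in males at 30.9 ± 3.15 CPM against 76.0 ± 12.9 CPM in females (log2 -1.30, adjusted p = 3.65e-07). Without male 3 or female 12 there were 2 higher in males, and without male 4 there were 2 higher in females. Cyp11a1, which makes the pregnenolone that this family oxidises, averaged 0.0740 CPM in males and 0.0602 CPM in females. Cyp17a1 of the same list was not low, at 52.3 ± 24.0 CPM in males and 34.2 ± 21.6 CPM in females, and was not called (edgeR adjusted p = 0.244).

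Genes listed for the reduction or oxidation of finished steroids included calls in both directions. Among the 20 tested of 25 listed, edgeR called 13 toward males and 4 toward females, where 22.7% and 20.5% of all tested genes were called so. Their median log2 fold change was 0.41, against 0.01 over all tested genes. The list was chosen with earlier results of these data known, so these differences from all tested genes may partly reflect that choice. It also holds Rdh2 and the Hsd17b genes, and the substrates of its members were not examined. Akr1c1, an aldo-keto reductase, was higher in males at 52.4 ± 25.3 CPM against 5.0 ± 1.64 CPM in females (log2 3.40, adjusted p = 4.1e-05). Hsd11b1, which regenerates active glucocorticoid, had a log2 fold change of 2.71 (adjusted p = 4.3e-06), and Rdh2, a retinol dehydrogenase, one of 2.50 (adjusted p = 1.37e-10). Srd5a1, the steroid 5-alpha-reductase that makes dihydrotestosterone, was lower in males, at 207 ± 127 CPM against 1443 ± 159 CPM in females (log2 -2.80, adjusted p = 2.18e-05). Hsd11b2, which inactivates glucocorticoid, was lower in males (log2 -1.44, adjusted p = 0.000212), as was Akr1c14, a 3-alpha-hydroxysteroid dehydrogenase (log2 -0.75, adjusted p = 9.27e-06).

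Steroid-conjugating genes split, with 4 of 9 tested higher in males and 4 higher in females, beside 22.7% and 20.5% of all tested genes (median log2 fold change -0.16). The Sult2a sulfotransferases, which act on hydroxysteroids, were lower in males: Sult2a2 stood at 40.7 ± 10.1 CPM in males and 652 ± 99.4 CPM in females (log2 -4.01, adjusted p = 5.12e-10), with Sult2a1 at log2 -1.88 (adjusted p = 8.03e-06) and Sult2al1 at log2 -1.87 (adjusted p = 9.57e-08). Sts, the steroid sulfatase, was higher in males (log2 0.71, adjusted p = 0.00119), as were Sult2b1 (log2 0.46, adjusted p = 0.0139) and Ugt2b7 (log2 0.85, adjusted p = 0.0230, lost without male 6). Of 4 receptors tested 1 was called, where 43.2% of all tested genes were called in either direction. Esr1, the estrogen receptor, was lower in males, at 6.91 ± 2.37 CPM against 18.7 ± 3.41 CPM in females (log2 -1.44, adjusted p = 0.000115). With upper quartile factors, with library totals or without male 3, 2 receptors were higher in females.

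**Figure D4:**
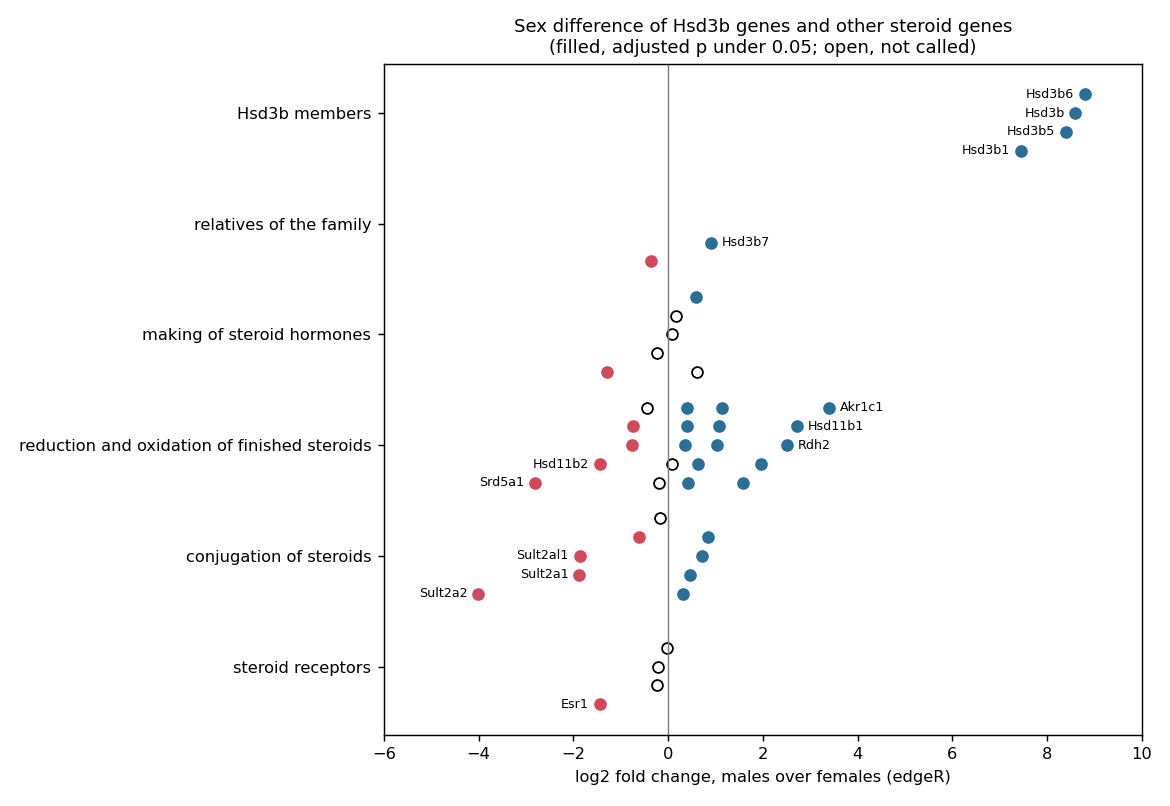
Log2 fold change, males over females, of each tested gene, for the 4 Hsd3b members (top row) and 5 lists of steroid genes; filled points passed edgeR's test at adjusted p under 0.05 (blue, higher in males; red, higher in females) and open points did not. The Hsd3b members lie between 7.45 and 8.79, and the points of all 5 lists between -4.01 and 3.40.

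Defining markers of adrenal cortex, Leydig cells and kidney tubule, tissues known for these enzymes, were at or near 0. Of 8 adrenal cortex markers 6 had any count, but Cyp11b1 and Mc2r were at 0 in all libraries and Cyp11b2 had 2 counts in males and 1 in females. The summed adrenal markers without Akr1b7 ran from 0.560 to 0.983 CPM in males and from 0.554 to 1.35 CPM in females. With Akr1b7, an aldo-keto reductase that is high in these female livers, they ran from 1.89 to 3.68 CPM in males and from 699.9 to 1033 CPM in females. Of 4 Leydig cell markers 3 had counts: Lhcgr was at 0, Insl3 had 8 counts in males and 0 in females, and Cyp17a1, at 52.3 CPM in males and 34.2 CPM in females, made up nearly all of the sum of 19.6 to 92.1 CPM in males and 21.3 to 77.4 CPM in females. Of 4 kidney tubule markers 3 had counts. Slc34a1 was at 0, Umod and Slc12a1 together had 11 counts in males and 9 in females, and the sum, mostly Lrp2, ran from 16.9 to 26.2 CPM in males and from 17.03 to 18.8 CPM in females. Lrp2 was called higher in males, as were 22.7% of all tested genes.

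Hepatocyte markers were high throughout, as the tissue label says. The 5 of 6 found summed to 143288 to 212095 CPM in males and 186392 to 263324 CPM in females. Of these, 2 were called higher in males and 1 in females, where 22.7% and 20.5% of all tested genes were called so. The calls of the markers below stand beside the same shares. The 4 Kupffer cell markers summed to 56.9 to 171 CPM in males and 96.1 to 148 CPM in females, and 2 were higher in females. The 4 stellate cell markers summed to 46.2 to 87.8 CPM in males and 51.7 to 76.2 CPM in females, with 1 called in each direction. Of 4 sinusoidal endothelial markers 2 were found, at 23.4 to 67.8 CPM in males and 65.0 to 81.6 CPM in females, both higher in females, while the defining Stab2 and Clec4g matched no row. Of 4 bile duct markers 2 were found, at 5.07 to 12.5 CPM in males and 4.59 to 9.68 CPM in females. The part of these cell types in the Hsd3b difference was not tested.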

How the data were processed

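Libraries from liver RNA of 12 rats were made with Illumina's TruSeq RNA kit, as the labels' protocols state. The deposited values are raw read counts per gene, not normalized, per the values in the files. The submitters' processing notes name Bowtie2 2.0.2, DESeq and build rn4. The counter, its annotation, its strand setting and its rule for reads that fit several genes are not stated in those notes. The files hold 16478 genes and 5 rows that name none (27.1% to 31.7% of counts), which were left out. These are named no_feature, ambiguous, too_low_aQual, not_aligned and alignment_not_unique. By these names, reads that were ambiguous or did not align uniquely have rows apart from the genes.

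The main test was that of edgeR 4.0.16 under R 4.3.3 (genes kept by filterByExpr with minimum count 10 and total 15, TMM, quasi-likelihood F test with robust dispersion, sex as the only term), males over females, with Benjamini-Hochberg adjustment over 9943 genes. SE was derived from the log2 fold change and F. Single values were compared by exact permutation over all assignments of animals to the sexes, and ratios and shares have exact binomial 95% intervals (scipy 1.17.1). Alternatives used DESeq2 1.42.0, limma-voom (limma 3.58.1), other factors and filters, and each animal left out. In simulated counts for this comparison over 9971 genes, 70% of 50 genes changed 1.5-fold, 92% of 50 changed 2-fold and 98% of 50 changed 4-fold were recovered. Of the calls 3.23% were false. Few genes were changed there, while 43.2% of tested genes were called in the data, so that rate holds for the simulated setting only.

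Genes named are the 4 members, the 3 genes nearest to each, and up to 3 called genes per direction of each steroid list. Cyp11a1, Cyp17a1, Cyp2c11 in the depth relations and the markers described fall outside that rule and were picked with their values known. The members and lists were chosen with earlier results of these data known.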

Additional observations from a re-analysis of the deposited data

Results flagged for a closer look

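Of 52 sets of 6 values examined, 8 held an animal far from the other 5. Chance alone flags about 1 in 20 sets of continuous values, a rate that does not hold for sets of a few counts. Hsd3b in female 9 stood at 0.277 CPM, against at most 0.0423 CPM in the other females, and rests on 2 counts. Hsd3b6 in female 12 stood at 0.0752 CPM and at 2.86% of the summed counts, against 0 in the other females. Both flags rest on the same single count, and 1 count among libraries at 0 is flagged by construction. Hsd3b6 in male 4 was low at 6.64 CPM, where the other males had 7.98 to 8.67 CPM. Male 4 also had the highest Hsd3b7 of the males, at 152 CPM against 128 to 137 CPM, and the highest Srd5a1, at 458 CPM against 118 to 203 CPM. Akr1c14 in female 12 was low at 1346 CPM, against 1605 to 1709 CPM in the other females. Hsd11b2 in male 6 was high at 3.88 CPM, against 1.97 to 2.62 CPM in the other males. In CPM, none of these animals overlapped the other sex in the gene concerned.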

How the results depend on the processing

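Of 763 values recomputed under alternatives, 747 kept their direction and their side of the threshold, or stayed within 1.5 times for counts. The log2 fold change of Hsd3b5 stayed called in all 20 alternatives, at 8.23 to 8.60. It was 7.14 to 7.78 for Hsd3b1, 8.12 to 9.68 for Hsd3b and 7.58 to 10.1 for Hsd3b6, whose calls say nothing of stability since they passed the filter only through the males. The summed level differed by 6.67 log2 units with a pseudocount of 5 CPM and by 8.31 with 0.1 CPM. Differences of shares, males minus females in percentage points, depended on single animals. With each animal left out, they ran from -0.651 to 1.05 for Hsd3b5, where the sign turned without female 9, 12 or 13, from -2.02 to -0.747 for Hsd3b1, from 0.479 to 1.59 for Hsd3b, and from 0.493 to 1.06 for Hsd3b6. Hsd3b1 passed the exact permutation test without female 7 and Hsd3b6 without female 12 (adjusted p = 0.00866 each, 0.701 at the highest), both by construction. No female Hsd3b6 count was left, and any Hsd3b1 count in a female gives a share above that of every male. With male 4 and female 12 left out together, an alternative chosen after the data were seen, the differences were -0.103 for Hsd3b5 and 1.07 for Hsd3b6 (adjusted p = 0.0317, likewise by construction). Without female 12 no Hsd3b6 count was left among 166 summed female counts, which allows a share of up to 1.81%, above the male 1.06%. Female 7, with 28 summed counts and 0 of Hsd3b1, allows up to 10.7% by the same rule, and up to 12.3% by the exact 95% interval. Shares per coding length were not run because no protein lengths were used here. No paired analysis was possible because males and females share no animal number.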
